A study of Mus musculus with 3 samples.

Results

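The 49 interferon-response genes were read in double negative (DN) thymocytes, the early T cell precursors that carry neither CD4 nor CD8, and in the cells sorted with them. The members were taken by gene symbol from the gene list of each library, out of 28692 genes listed in run 1 and in run 2 and 32285 in run 3. All 49 were found and had counts in runs 1 and 2, where Ifi206, Ifi208, Ifi209 and Ifi213 stand under older symbols and were matched by their gene identifiers. In run 3 the files list 48, since Mx1 is not among its genes. The 27734 genes listed in all runs were the pool from which the tested genes came.

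Each run was a 10x Genomics 3' library of sorted thymocytes from untreated C57BL/6 mice, labelled as 6 weeks of age, with 4 thymi pooled per library. Run 1 held total DN cells, which the study sorted without B cells, myeloid cells and cells with NK1.1 or TCRβ, together with TCRγδ+ cells. Run 2 held DN1 and DN2 cells without TCRγδ+ cells. Run 3 held DN1 plus DN2, DN3 and TCRγδ+ cells that were sorted apart and then mixed. The study describes the same exclusion of cells with B220, NK1.1 or TCRβ and of myeloid cells for these sorts. No sort was repeated and no genotype or agent was compared, so the runs were not replicates of a sort and were not set against each other; with pooled thymi, differences between mice were not measured.

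Type I interferons bind a receptor of IFNAR1 and IFNAR2, and the kinases JAK1 and TYK2 then activate STAT2, which in a complex with IRF9 binds the interferon-stimulated response element in the promoters of target genes. Interferon γ acts through another receptor. The target genes code for RNA and DNA sensors, antiviral effectors and feedback inhibitors, and some are held at a level in resting lymphocytes without an added stimulus. Bst2, which codes for CD317, was also among the surface markers that the study used to separate DN1 cells.

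The limits were 500 to 5000 genes per cell and no more than 7% of counts from mitochondrial genes, which left 5516 cells in run 1, 8852 in run 2 and 7511 in run 3, with a median of 5990, 4844 and 8507 unique molecular identifiers (UMIs) per cell. Cells were placed in transcript gates by marker genes, none of which was a member, and 48.1%, 69.9% and 75.4% of the kept cells had a gate. ETP-like cells had at least 2 of Kit, Cd34, Flt3, Hhex, Lmo2 and Mef2c without Il2ra and Ptcra, and Cpa3 was not excluded. DN2a-like and DN2b-like cells had Il2ra with Cpa3 or Kit and lacked or had Rag1, Rag2 or Ptcra. DN3-like cells had Il2ra and Ptcra without Cpa3 and Kit. DN4-like cells lacked Il2ra, Cpa3 and Kit. They had Cd8a, Cd8b1 or Cd4 together with Ptcra, or at least 2 of Cd8a, Cd8b1 and Cd4. Il2ra was at 287 to 541 CPM in the DN3-like sums and Trdc at 1419 to 2635 CPM in the gammadelta-like sums, but Trdc was also at 79.9 to 617 CPM in the other gates of at least 20 cells. The NK-receptor-like cells had Klrd1 at 1015 CPM in run 2 and 388 CPM in run 3, and they also had Trac, of the αβ T cell receptor, at 1357 and 542 CPM. Runs 1 and 2 shared 72 cell barcodes, runs 1 and 3 shared 3 and runs 2 and 3 shared 0. No doublet caller was run.

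A level below is the count of a gene summed over the cells of a gate in a run, divided by all UMIs of those cells and given as CPM. The 3' libraries count transcripts and not their length, so that levels of different genes can be set side by side only roughly. Fewer cells with a transcript and less transcript per cell cannot be told apart in such sums. Ifit3 and Ifit3b are near-identical copies whose reads cannot be split with certainty, and the same holds to a lesser degree for the Ifi2xx, Slfn and Phf11 families. Samd9l, Slfn5 and Parp14 read higher in every shared DN gate of run 3 than in run 2, and the runs differ in annotation, so that only gates of the same run were compared.

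The DN stages below are the transcript gates from ETP-like to DN4-like, which do not hold all sorted DN cells. These gates turn on whether a marker had any UMI, so that neighbouring gates can hold cells of the same stage. The summed level of all members differed little between these stages of a run, with DN4-like cells of run 1 as the exception. In run 1 it was 1093, 1004, 835 and 458 CPM from DN2a-like to DN4-like cells. In run 2 it was 965, 999, 1016 and 1029 CPM from ETP-like to DN3-like cells. In run 3 these gates were at 1607, 1384, 1279 and 1410 CPM. The gammadelta-like cells were at 698, 1205 and 1409 CPM in the 3 runs. The NK-receptor-like and B gates stood higher. NK-receptor-like cells of runs 2 and 3 were at 2443 and 3608 CPM, and the 410 B cells of run 3 at 4246 CPM. The sorts excluded cells with B220, NK1.1 or TCRβ, and why B and NK-receptor-like cells were still found was not tested. Run 2 was sorted as DN1 and DN2 cells, so that its DN3-like cells were placed by transcripts alone. The study separated some of its DN1 cells by CD314 (NKG2D), and whether the NK-receptor-like cells belong to them was not tested. The highest level of a member fell in the NK-receptor-like gate for 32 and in the gammadelta-like gate for 7 of the 49 members in run 2. In run 3 it fell in the B gate for 26 and in the NK-receptor-like gate for 17 of the 48. Other genes were not ranked in this way, so that the share of all genes highest in each gate is not known.

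**Figure D1:**
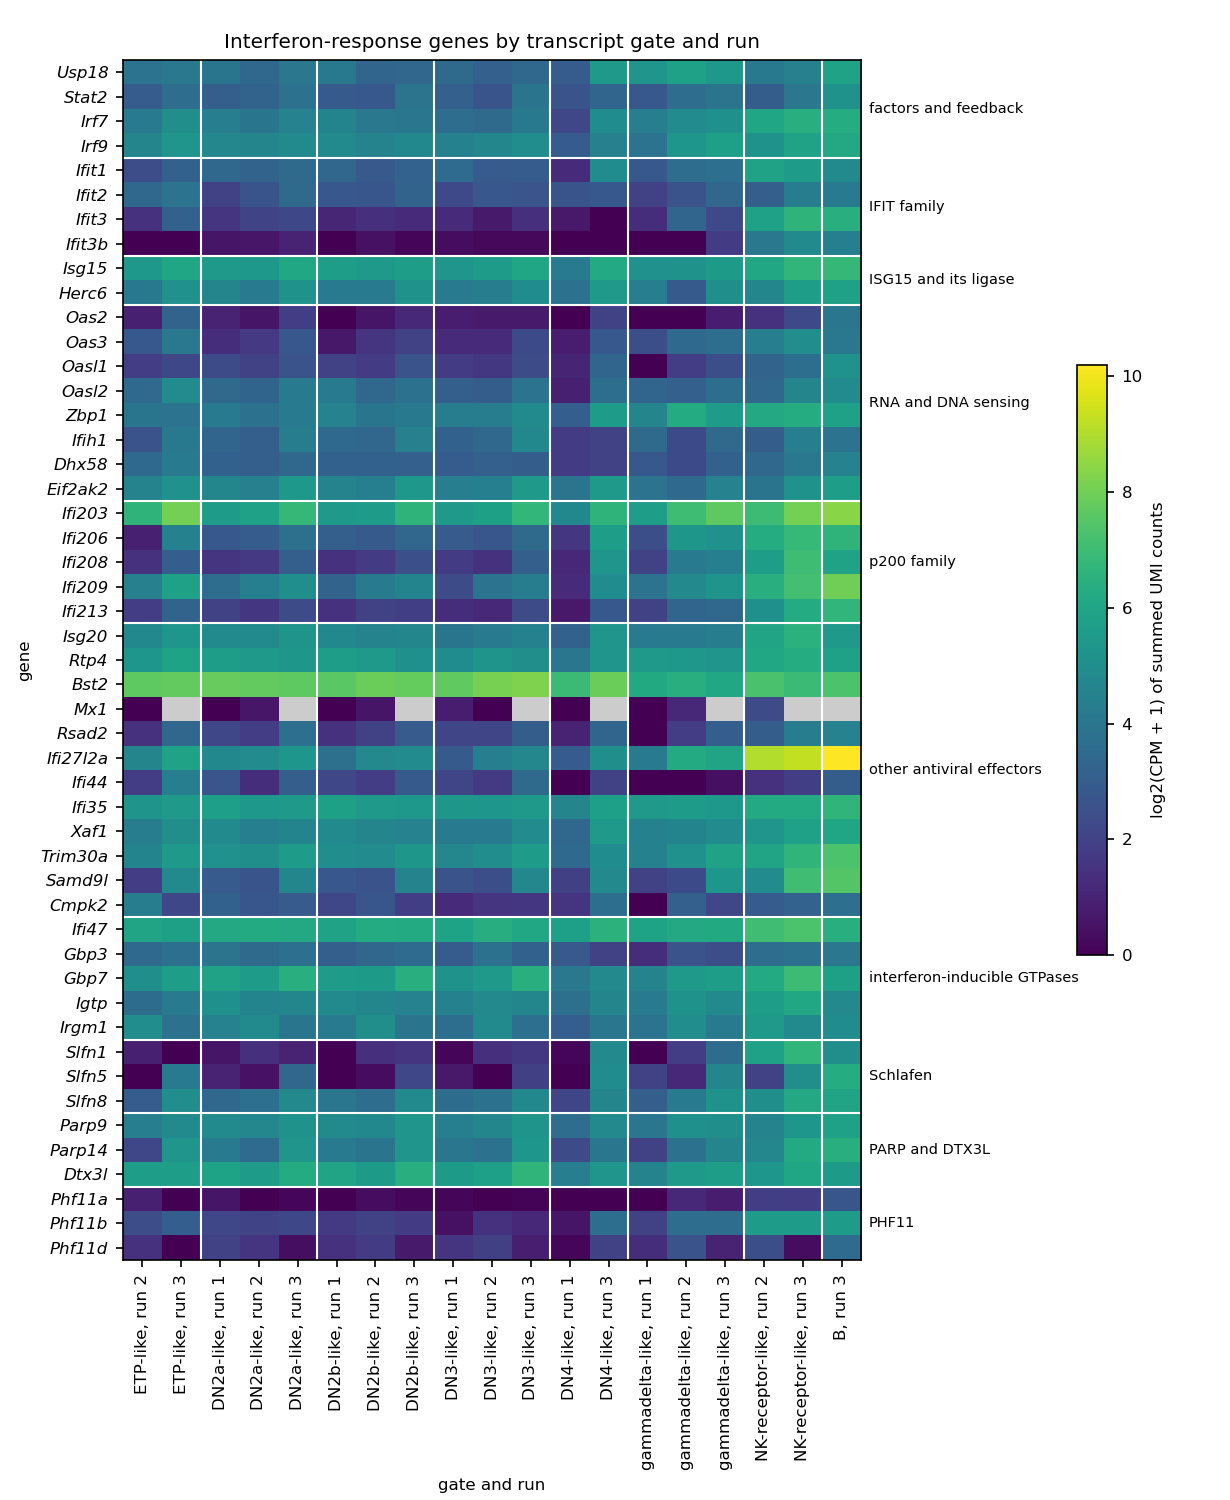
Level of each member (rows, grouped by role) in each gate and run with at least 20 cells (columns), as log2(CPM + 1) of the summed UMI counts; grey marks Mx1 where it was not listed. Bst2 and Ifi47 are bright in every column, Ifit3b and Phf11a are dark in the DN stages, and Ifi27l2a is brightest in the NK-receptor-like and B columns.

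The members differed widely in level. Bst2, which codes for tetherin, a membrane protein that holds budding virions at the cell surface, was the most abundant member in the sums of the DN stages, except for the ETP-like cells of run 3, where Ifi203 was at 268 CPM. It was at 228, 192, 208 and 123 CPM in the DN2a-, DN2b-, DN3- and DN4-like cells of run 1, and at 202, 215, 240 and 275 CPM in the ETP-, DN2a-, DN2b- and DN3-like cells of run 2. In run 3 the same 4 gates of run 2 were at 215, 205, 223 and 295 CPM. DN3-like cells were thus highest in runs 2 and 3 but not in run 1. Ifi47, an interferon-inducible GTPase, was at 53.1 to 92.4 CPM over the 13 sums of DN stages. Bst2 and Ifi47 were the 2 members at 50 CPM or more in every such sum.

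Ifi203, a member of the p200 family of nucleic acid-binding proteins, was at 26.1 to 268 CPM, and Dtx3l, a ubiquitin ligase that works with Parp9, was at 19.3 to 102 CPM. Isg15, the ubiquitin-like protein that is joined to other proteins, was at 18.0 to 74.5 CPM, and Gbp7, a guanylate-binding protein, was at 15.8 to 85.5 CPM. In each of these 4 genes the lowest value was that of the DN4-like cells of run 1. At the other end, 4 members never reached 5 CPM in a DN stage. These were Ifit3b (highest 1.01 CPM), Mx1 (0.754 CPM in runs 1 and 2), Phf11a (0.862 CPM) and Phf11d (3.02 CPM). The medians over the DN sums of the other IFIT genes, which bind foreign RNA, were 1.64 CPM for Ifit3, 5.75 for Ifit2 and 8.16 for Ifit1, well under the 49.1 CPM of Isg15.

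The promoters of the abundant and of the inducible members were set side by side for the response element. RefSeq promoter windows (build GRCm38.p6, 250 bases before to 50 after the start) were at hand for 40 of the 49 members. The letters GAAA, any 2 bases and GAAA again, searched on both strands, were in a window of 23 of these 40 genes (57.5%), against 3.99% of 27025 genes in the table. For the interferon γ-activated site, TTC, any 3 bases and GAA, which reads the same on both strands, the shares were 7 of 40 (17.5%) and 9.55%. The response element was in 5 of the 10 genes of the inducible list defined further on and in 18 of the 30 other members. Among the abundant members, Bst2, Ifi203 and Gbp7 had it and Ifi47, Ifi35 and Dtx3l did not have these letters in the windows. A match is a description of the sequence, and no binding was measured.

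The stretches below are those of Ifit1, Ifit3 and Isg15 from the inducible list and of Bst2 and Ifi203 from those on without it. Isg15 was also among the more abundant members, with a median of 49.1 CPM over the DN sums. Each is 60 bases upstream of the start, 5′ to 3′ on the strand of the gene, with the matches in capitals; in Isg15 and Bst2 the capitals are overlapping matches. They lie at chr19:34640779-34640838 (+) for Ifit1, chr19:34583382-34583441 (+) for Ifit3, chr4:156200850-156200909 (-) for Isg15, chr8:71537562-71537621 (-) for Bst2 and chr1:173942493-173942552 (-) for Ifi203.
Ifit1: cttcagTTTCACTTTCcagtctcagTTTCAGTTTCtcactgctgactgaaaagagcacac
Ifit3: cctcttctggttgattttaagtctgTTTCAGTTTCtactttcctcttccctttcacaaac
Isg15: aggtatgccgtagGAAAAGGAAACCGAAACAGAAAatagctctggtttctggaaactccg
Bst2: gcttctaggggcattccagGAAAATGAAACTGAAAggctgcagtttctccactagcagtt
Ifi203: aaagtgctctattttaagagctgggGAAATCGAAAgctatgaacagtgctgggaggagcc

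Between neighbouring stages up to DN3, few members changed. Counts were summed per gate and run and tested with edgeR's quasi-likelihood test with run as a block, over 11697 genes, among them all 48 members listed in every run. From ETP-like to DN2a-like cells (runs 2 and 3), 1 member rose and 2 fell, or 6.25% of the members, with 6.97% of all tested genes called (2.39% higher and 4.57% lower). Ifi203 was at 99.1 and 268 CPM in ETP-like and at 55.7 and 111 CPM in DN2a-like cells, and fell by 1.09 ± 0.18 (log2 fold change ± SE, adjusted p = 0.000327). Oas3, an oligoadenylate synthetase that activates RNase L, fell from 6.03 and 15.8 CPM to 2.21 and 5.75 CPM (log2 fold change −1.53 ± 0.37, adjusted p = 0.012). Gbp7 rose from 32.7 and 51.0 CPM to 46.9 and 83.0 CPM (log2 fold change 0.65 ± 0.19, adjusted p = 0.0397). None of the 3 was called when run 3 was left out, and Ifi203 alone was called when run 2 was left out. ETP-like cells numbered 137 and 98, and their markers of myeloid and dendritic cells summed to 75.0 and 76.9 CPM, with 6 and 4 of the 8 markers found and Lyz2 at 58.6 and 53.2 CPM. DN2a-like cells had 45.6 and 34.5 CPM of the same markers. Erythroid markers summed to 457 and 176 CPM in ETP-like and to 120 and 143 CPM in DN2a-like cells, and the part of either list in these values was not tested. Cpa3, a marker of the DN2 gates, was at 396 and 153 CPM in ETP-like and at 535 and 392 CPM in DN2a-like cells. DN2a cells whose Il2ra was missed can thus stand in the ETP-like gate, and their part was not tested.

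From DN2a-like to DN2b-like cells, 0 members passed edgeR's test and 7 had an unadjusted p under 0.05, with 0.923% of all genes called (0.539% higher and 0.385% lower). All 7 (Ifit3, Slfn5, Isg20, Ifit3b, Oas3, Ifi209 and Rsad2) had values below zero. DESeq2 called 0 as well, while 2 members were called as lower when cycling cells were left out and 1 when run 1 was. From DN2b-like to DN3-like cells, 0 members were called by edgeR or by DESeq2 and 4 had an unadjusted p under 0.05, with 4.48% of all genes called (1.39% higher and 3.09% lower). The 854 DN3-like cells of run 2 came from a sort of DN1 and DN2 cells. DN2 cells whose Kit and Cpa3 were missed can stand among them, and how far these gates hold the same cells was not tested. The median log2 fold change of the members was −0.03, −0.12 and −0.03 in these 3 steps, beside 0.0026, −0.01 and 0.01 over all genes.

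**Figure D2:**
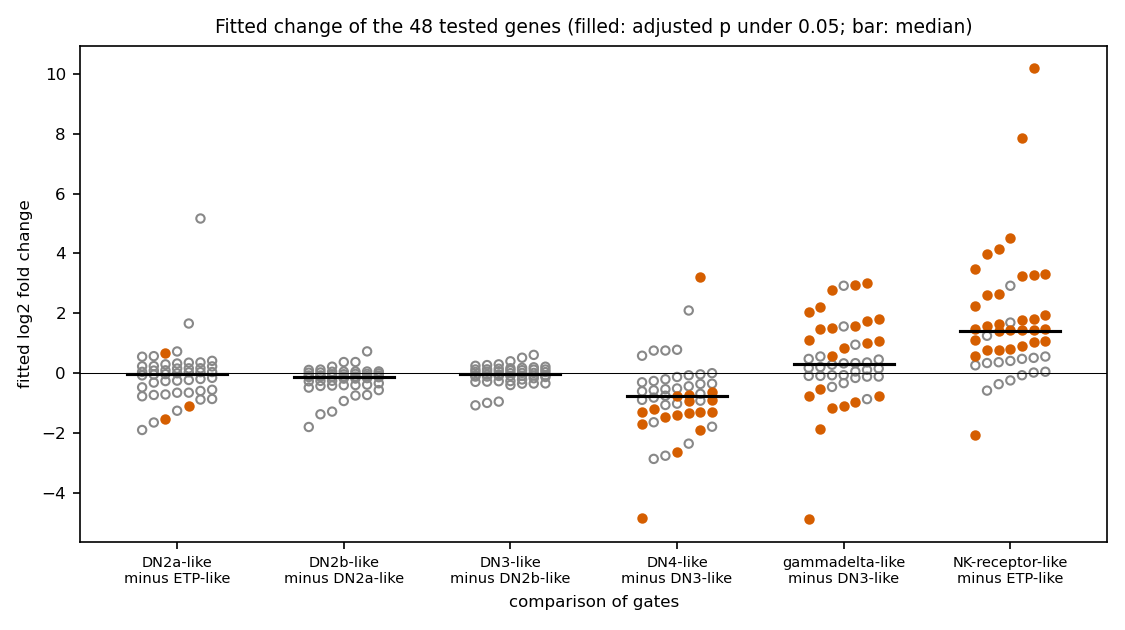
Fitted log2 fold change of the 48 tested members (points) in each comparison of gates, filled where the adjusted p was under 0.05, with the median as a bar. The first 3 comparisons centre on 0, DN4-like minus DN3-like lies mostly below 0 and NK-receptor-like minus ETP-like mostly above; values of genes with 0 counts in a gate, such as Ifit3b, are set by the fit and are not sizes of change.

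DN4-like cells had lower levels than DN3-like cells in run 1. Of the 48 members 16 fell and 1 rose (35.4%), with 13.8% of all genes called (5.55% higher and 8.27% lower), and the median log2 fold change was −0.76 beside −0.04 over all genes. The 16 were spread over the roles, with all 3 of Parp9, Parp14 and Dtx3l, 3 of 8 sensors, 2 of 4 factors and feedback genes, 2 of 5 GTPases and 0 of 5 p200 genes. Dtx3l moved from 46.5 to 19.3 CPM in run 1 and from 102 to 38.8 CPM in run 3 (log2 fold change −1.35 ± 0.22, adjusted p = 0.00037). Gbp7 moved from 35.4 to 15.8 CPM and from 85.5 to 26.8 CPM (−1.30 ± 0.19, adjusted p = 0.00018). Ifih1, which codes for the RNA sensor MDA5, moved from 8.04 to 2.54 CPM and from 26.1 to 2.98 CPM (−1.92 ± 0.32, adjusted p = 0.000488), the last value being 1 UMI. Parp14 moved from 15.1 to 4.23 CPM and from 39.7 to 14.9 CPM (−1.71 ± 0.30, adjusted p = 0.000835). Both runs pointed the same way for these 4 genes.

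For the others named here the sign was the same in both runs and the fall was larger in run 1. Irf9, the DNA-binding part of the type I interferon complex, was at 21.1 and 6.89 CPM in run 1 and at 31.2 and 20.9 CPM in run 3 (log2 fold change −1.46 ± 0.28, adjusted p = 0.00173). Oasl2, an OAS-like protein, was at 7.41 and 0.846 CPM in run 1 but at 13.6 and 11.9 CPM in run 3 (−2.63 ± 0.50, adjusted p = 0.0015). Trim30a, Dhx58 and Slfn8 fell by 1.22 ± 0.19, 1.39 ± 0.33 and 1.30 ± 0.34 (adjusted p = 0.000314, 0.00908 and 0.0144). Their log2 differences were −1.31, −1.47 and −1.71 in run 1 and −0.59, −0.67 and −0.04 in run 3. Ifi44 was at 3.39 CPM in the DN3-like cells of run 1 and had 0 UMIs in the DN4-like cells, so that it was at least 9.35-fold lower against a floor of 3 counts in that sum. In run 3 it was at 10.5 CPM against 1 UMI, a ratio of 3.52 with a 95% counting interval of 0.621 to 140 that includes no difference. Slfn1, which was called as higher, was at 0.126 and 0.121 CPM in run 1 and at 2.13 and 26.8 CPM in run 3, so that run 3 alone carried the call.

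The DN4 comparison rested mainly on run 1. Its 805 DN4-like cells were 87.8% cycling (at least 2 of 6 cycling markers), against 43.8% of DN3-like cells, and the median UMI count was 9404 against 5167. With cycling cells left out, a choice made after seeing the data, 98 DN4-like cells remained in run 1, run 3 dropped out of the comparison and 4 members were called as lower and 0 as higher. The summed level was then 645 CPM, against 1302 CPM in 615 DN3-like cells that were not cycling, beside 458 and 835 CPM with all cells. Dtx3l (−1.11 ± 0.32, adjusted p = 0.0324), Gbp7 (−1.33 ± 0.40, adjusted p = 0.0394) and Irf9 (−2.62 ± 0.67, adjusted p = 0.0146) were among the 4, and Ifih1, Parp14, Oasl2, Dhx58, Slfn8, Trim30a and Ifi44 were not called. Their levels were still lower in these DN4-like cells. Ifih1 was at 3.47 CPM (2 UMIs) against 13.7 CPM, Slfn8 at 1.73 CPM (1 UMI) against 16.2 CPM and Parp14 at 10.4 CPM (6 UMIs) against 24.98 CPM, and Oasl2 and Ifi44 had 0 UMIs against 10.4 and 6.24 CPM. Run 3, sorted without DN4 cells, gave 22 DN4-like cells, with a summed member level of 1476 CPM beside 1410 CPM in DN3-like cells. Without run 1, 3 members were called as higher and 1 as lower. Without run 2, which has no DN4-like sum but enters the shared fit through its other gates, 10 were lower and 1 was higher.

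Gammadelta-like cells, with Trdc and at least 2 of Sox13, Etv5, Blk, Maf and Id3, differed from DN3-like cells in both directions. Cells that met the NK-receptor-like gate were placed there first, and Trdc was at 163 and 156 CPM in that gate in runs 2 and 3. The study lists Sox13, Etv5, Blk and Maf as high in 1 of its 2 γδ clusters. The values below therefore hold for the gated cells and not for all γδ thymocytes. Of the 48 members 15 were higher and 8 lower (47.9%), with 29.4% of all genes called (15.0% higher and 14.4% lower), and the median log2 fold change was 0.30 beside −0.06 over all genes. Run 2 was sorted as DN1 and DN2 cells without TCRγδ+ cells. Its 210 gammadelta-like and 854 DN3-like cells were placed by transcripts, and whether they are the same cells as in runs 1 and 3 was not tested. The study found Sox13, a marker of the gammadelta-like gate, high in a DN1 subpopulation. Without run 2, 10 members were higher and 6 lower. All 5 p200 genes were higher, and 3 of 4 factors and feedback genes, while 2 of 3 in the Parp and Dtx3l group and 2 of 5 GTPases were lower. Usp18, the protease that removes ISG15 and damps the type I receptor, was at 39.2, 55.4 and 42.6 CPM in the gammadelta-like cells of runs 1, 2 and 3, against 10.4, 7.68 and 9.65 CPM in DN3-like cells. The ranges did not overlap, and the log2 fold change was 2.20 ± 0.27 (adjusted p = 2.56e-06). Irf7, the factor that amplifies type I interferon, was at 19.6, 29.6 and 33.6 CPM against 11.4, 10.5 and 16.3 CPM (1.09 ± 0.27, adjusted p = 0.00452).

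Bst2 went the other way. It was at 72.4, 86.3 and 65.8 CPM in gammadelta-like cells, against 208, 275 and 295 CPM in DN3-like cells, with no overlap (log2 fold change −1.88 ± 0.17, adjusted p = 4.08e-08). In each of the 3 runs this was the lowest Bst2 level of the gates with at least 20 cells. Eif2ak2, which codes for the kinase PKR, was at 13.6, 10.3 and 22.2 CPM against 19.3, 20.2 and 44.7 CPM (−0.97 ± 0.21, adjusted p = 0.0014). Dtx3l (−0.78 ± 0.19, adjusted p = 0.00317) and Gbp3 (−1.17 ± 0.38, adjusted p = 0.0236) were lower as well, with Gbp3 under the floor of 3 counts in the gammadelta-like sum of run 1. Ifi44 was at 3.39, 2.34 and 10.5 CPM in DN3-like cells and had 0, 0 and 1 UMI in gammadelta-like cells. In run 3 the ratio was 30.3 with a 95% counting interval of 5.35 to 1205, and in runs 1 and 2 the DN3-like levels were under the floor that 3 counts set in the gammadelta-like sums.

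Several members that are low in DN3-like cells were higher in gammadelta-like cells. Ifi27l2a was at 18.1, 73.4 and 61.6 CPM against 6.40, 20.4 and 25.5 CPM (log2 fold change 1.51 ± 0.28, adjusted p = 0.00031). Phf11b was at 3.02, 11.6 and 11.4 CPM against 0.377, 1.84 and 1.22 CPM (3.003 ± 0.42, adjusted p = 1.32e-05). Oas3 (1.79 ± 0.35), Slfn5 (2.95 ± 0.51), Ifi208 (1.57 ± 0.37), Ifi213 (1.46 ± 0.38) and Slfn1 (2.05 ± 0.53) were at 0 to 7.52 CPM in DN3-like cells, with adjusted p-values of 0.000147 to 0.00618. In run 1 the gammadelta-like levels of Phf11b, Slfn5, Ifi208 and Ifi213 were under the floor of 3 counts in that sum, so the size of their change there is uncertain. Slfn1 had 0 UMIs in the gammadelta-like cells of run 1 and 11.1 CPM in run 3, and it was not called without run 3. Ifit3b was called as higher on 7 UMIs in run 3, with 0 UMIs in gammadelta-like cells of runs 1 and 2, and its sign turned without that run. Without run 3, 8 members were higher and 1 lower. The shares of cycling cells were 48.6%, 8.57% and 22.9% in gammadelta-like cells and 43.8%, 39.0% and 30.8% in DN3-like cells, and with cycling cells left out 14 members were higher and 8 lower. The markers of plasmacytoid dendritic cells (Siglech, Cox6a2, Klk1 and Ccr9) summed to 389, 1245 and 1070 CPM in gammadelta-like cells, against 64.8, 43.7 and 123 CPM in DN3-like cells. Of these markers, 1, 2 and 3 were found in the gammadelta-like cells of runs 1, 2 and 3. Siglech, which defines plasmacytoid dendritic cells, was at 0, 0 and 0.346 CPM in the gammadelta-like cells. The study lists Ccr9 among the genes high in 1 of its γδ clusters, and the part of this list in the values was not tested.

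NK-receptor-like cells had the highest summed member level outside B cells. These cells, with at least 3 natural killer markers such as Klrd1, Nkg7 and Ccl5, were compared with ETP-like cells in runs 2 and 3. Of the 48 members 31 were higher and 1 lower (66.7%), with 39.4% of all genes called (20.2% higher and 19.2% lower), and the median log2 fold change was 1.42 beside 0.03 over all genes. By role, 4 of 5 p200 genes, 4 of 5 GTPases, 3 of 4 IFIT genes, 3 of 8 sensors and 8 of 11 other antiviral effectors were higher. Ifi27l2a was at 516 and 609 CPM against 24.1 and 58.2 CPM (log2 fold change 3.98 ± 0.31, adjusted p = 2.27e-09), the highest level of any member in these cells. Ifit1 was at 58.3 and 48.4 CPM against 4.31 and 7.91 CPM (3.31 ± 0.50, adjusted p = 1.93e-05). Ifit3 was at 56.2 and 99.2 CPM against 1.72 and 7.91 CPM (4.15 ± 0.37, adjusted p = 1.74e-08). Its ETP-like level in run 2 was under the floor of 3 counts, so that the size of the change is uncertain. Ifit3b was at 16.1 and 27.8 CPM in NK-receptor-like cells and had 0 UMIs in ETP-like cells, so that it was at least 6.25- and 12.9-fold higher against a floor of 3 counts in the ETP-like sum of each run.

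Of the p200 genes, 3 were among the 10 largest increases, and so was Slfn1 of the Schlafen genes. Ifi208 was at 50.5 and 128 CPM against 1.72 and 7.19 CPM (4.50 ± 0.41, adjusted p = 2.82e-08). Ifi213 was at 34.1 and 77.3 CPM against 2.58 and 8.63 CPM (3.47 ± 0.33, adjusted p = 3.95e-08). Ifi206 was at 78.5 and 114 CPM against 0.862 and 21.6 CPM (3.25 ± 0.47, adjusted p = 1.44e-05). In run 2 the ETP-like levels of Ifi208 and Ifi206 were under the floor of 3 counts and that of Ifi213 was at it. The sizes of these changes are thus uncertain, and that of Ifi206 ranged from 2.60 to 6.77 when each run was left out. Slfn1 was at 56.7 CPM in the NK-receptor-like cells of run 2 against 1 UMI in ETP-like cells, a ratio of 65.8 with a 95% counting interval of 11.7 to 2606, and in run 3 it was at 105 CPM against 0 UMIs, at least 48.8-fold higher. Phf11b was at 48.3 and 49.0 CPM against 4.31 and 7.19 CPM (3.27 ± 0.33, adjusted p = 1.29e-07). Zbp1, a sensor of Z-form nucleic acid, was at 70.1 and 79.7 CPM against 14.6 and 13.7 CPM (2.64 ± 0.39, adjusted p = 1.48e-05). Ifi44 alone was called as lower, at 1.78 and 2.72 CPM against 2.58 and 19.4 CPM (−2.08 ± 0.55, adjusted p = 0.00519). It was not called without run 3. Bst2, set beside ETP-like cells further on, was not called in either direction. Cycling cells made up 2.82% and 13.2% of NK-receptor-like cells and 34.3% and 53.1% of ETP-like cells, and with cycling cells left out 28 members were higher and 2 lower. The myeloid and erythroid markers summed to 6.14 to 15.0 CPM in NK-receptor-like cells, under the values given above for ETP-like cells, and their part was not tested.

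B cells, which had a gate with 20 or more cells in run 3 only, were not tested. In the B cells of run 3, Ifi27l2a was at 1175 CPM, Ifi203 at 330 CPM, Ifi209 at 253 CPM, Samd9l at 177 CPM and Trim30a at 156 CPM.

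The inducible genes were next read cell by cell. A list of 12 members that are known as strongly inducible (Ifit1, Ifit2, Ifit3, Ifit3b, Isg15, Usp18, Rsad2, Cmpk2, Oasl1, Irf7, Mx1 and Ifi44) had no UMI in 73.0%, 65.9% and 46.3% of the cells of runs 1, 2 and 3. Cells with at least 10 UMIs of the list, a limit set after the counts were seen, made up 0.616% (34 cells), 1.16% (103 cells) and 4.38% (329 cells), and held 20.6%, 28.2% and 46.1% of all UMIs of the list. Since the runs differed in depth, the share was read within a run.

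Such cells were found in most gates. Among DN2a-like cells they were 1.04% (4 of 383), 1.02% (19 of 1860) and 4.50% (51 of 1133) in runs 1, 2 and 3, and among DN3-like cells 0.731% (8 of 1095), 0.703% (6 of 854) and 2.38% (31 of 1302). Among NK-receptor-like cells the shares were 2.26% (44 of 1948, exact 95% interval 1.65 to 3.02%) in run 2 and 8.65% (99 of 1145, 7.08 to 10.4%) in run 3, above the shares in DN2a-like cells of the same run. The median UMI count was 2705 there and 7270 in DN2a-like cells in run 2, and 5710 and 13525 in run 3. In the B cells of run 3 the share was 8.29% (34 of 410). None of the 805 DN4-like cells of run 1 had 10 UMIs, which allows a share of up to 0.373% by 3 counts of the total (the exact 95% upper limit was 0.457%), at a median of 9404 UMIs per cell, and 25.7% of them had at least 1 UMI of the list. After thinning to 2000 UMIs per cell, 3 or more list UMIs were in 6.11% and 11.4% of NK-receptor-like cells and in 1.92%, 1.41% and 1.85% of DN3-like cells. These intervals cover counting error only.

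**Figure D3:**
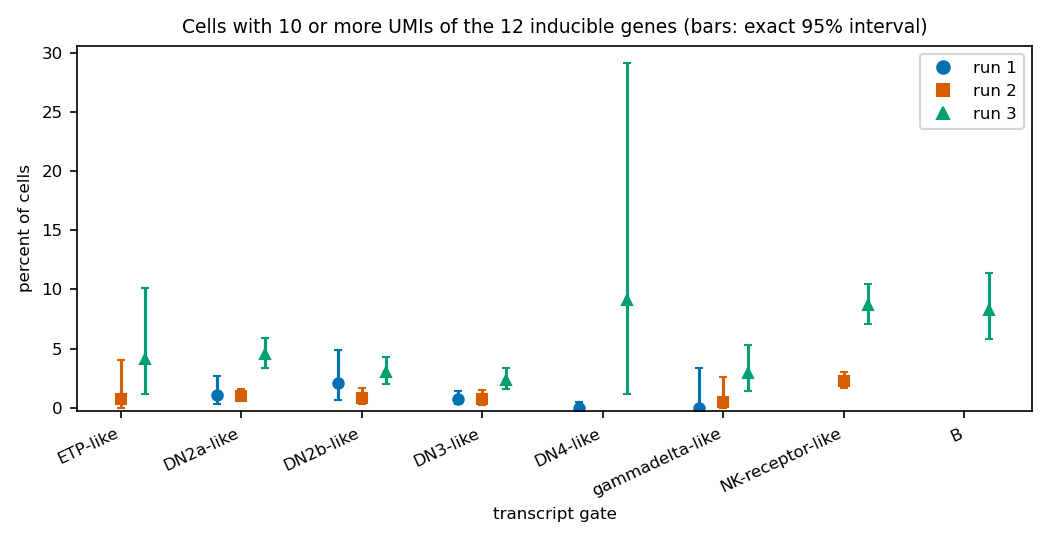
Percent of cells with 10 or more UMIs of the 12 inducible genes in each gate (x axis) and run (marker), with exact 95% intervals that cover counting error only. In run 3 the NK-receptor-like share was 8.65% and the DN3-like share 2.38%; the DN4-like point of run 3 rests on 22 cells.

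The high cells were chosen by their UMIs of the list, so that finding several of its genes in them is partly set by that choice. The median number of different list genes in such a cell was between 4 and 8 in each gate that had any. The 8 was that of 1 gammadelta-like cell of run 2, and the 4 that of 5 DN2b-like cells of run 1 and 2 DN4-like cells of run 3. The highest count in a cell was 107 UMIs, in a DN2a-like cell of run 3. In that gate the median UMI count was 13755 in high cells and 13525 in all cells, and in NK-receptor-like cells of run 3 it was 5597 and 5710. The members outside the list were therefore compared between high cells and cells with 0 list UMIs of the same gate and run, in the 7 sets with at least 20 high cells (6 of gated cells and 1 of the ungated cells of run 3). Rtp4, a chaperone-like protein, was higher by 11.4- to 22.8-fold, Ifi206 by 6.01- to 40.02-fold, Xaf1 by 6.23- to 12.3-fold and Trim30a by 5.31- to 7.45-fold. In DN3-like cells of run 3, for instance, Rtp4 was at 14.5 CPM in 700 cells with 0 list UMIs and at 287 CPM in 31 high cells.

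Others differed less. Dtx3l differed by 1.77- to 6.25-fold, Ifi47 by 1.83- to 4.96-fold, Stat2 by 1.47- to 7.51-fold, Gbp3 by 2.18- to 5.38-fold and Bst2 by 2.31- to 7.32-fold. The top of these ranges was that of the NK-receptor-like cells of run 2 for each of the 5 genes. The same gene could move by very different amounts between gates. Oas3 was 48.01-, 65.2- and 50.1-fold higher in high cells of the DN2a-, DN2b- and DN3-like gates of run 3, over 8, 4 and 6 UMIs in the cells with 0 list UMIs, and 5.86-fold higher in NK-receptor-like cells, where its level in cells with 0 list UMIs was already 15.4 CPM against 0.670 to 1.23 CPM. Rsad2, Cmpk2 and the other list genes were used to choose the cells, and their ratios are therefore not given.

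Some members met a rule that is named here as on without the rest. A member was so described in a gate where it had at least 20 CPM in cells with 0 UMIs of the list (itself left out) in each run with at least 20 such cells, and was less than 2-fold higher in cells with at least 2 list UMIs. Ifi47 met this in 6 gates, Ifi203 and Bst2 in 5 each, Dtx3l in 4, Ifi35 in 3 and Gbp7 in 2. In the 5 DN stages 9 members met it in some stage, the 6 above and Eif2ak2, Igtp and Isg20. The rule was applied to the members only, so that the share of all genes that would meet it is not known. These counts therefore describe single members and do not set them apart from other genes. In DN3-like cells of run 1 the list summed to 88.4 CPM, at a median of 5167 UMIs per cell. A cell with 0 list UMIs can thus hold transcripts that were missed, and the rule does not show that the list was off. Bst2 met the rule in all 5 stages, of which DN4 rests on run 1. In DN3-like cells with 0 list UMIs it was at 199, 267 and 275 CPM in runs 1, 2 and 3, and at 278, 308 and 369 CPM in cells with at least 2. In ETP-like cells of runs 2 and 3 it was at 175 and 165 CPM without the list, on 116 and 93 UMIs, and at 280 and 292 CPM with it. In NK-receptor-like cells of runs 2 and 3 Bst2 was at 109 and 80.1 CPM without the list, under the ETP-like levels. It was 3.01- and 2.30-fold higher there with the list, and the rule was not met.

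Ifi47 differed least in ETP-like cells. In ETP-like cells it was at 54.3 and 53.2 CPM without list UMIs and at 49.9 and 57.3 CPM with at least 2 in runs 2 and 3, and in DN3-like cells at 61.0, 71.4 and 63.7 CPM without and 67.5, 114 and 88.3 CPM with them. Ifi203 was at 93.5 and 188 CPM in ETP-like cells without the list and at 130 and 356 CPM with it. Dtx3l in DN3-like cells without the list was at 42.6 to 97.4 CPM, and the ratio was 1.26 to 1.46. Ifi35, which binds the factor Nmi, was at 33.1 to 46.0 CPM in DN2a-like cells without the list, with ratios of 1.68 to 1.91 that lie near the limit. Eif2ak2 and Isg20 met the rule in ETP-like cells alone, on 15 to 23 UMIs, and Igtp in DN3-like cells alone, with ratios up to 1.83.

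**Figure D4:**
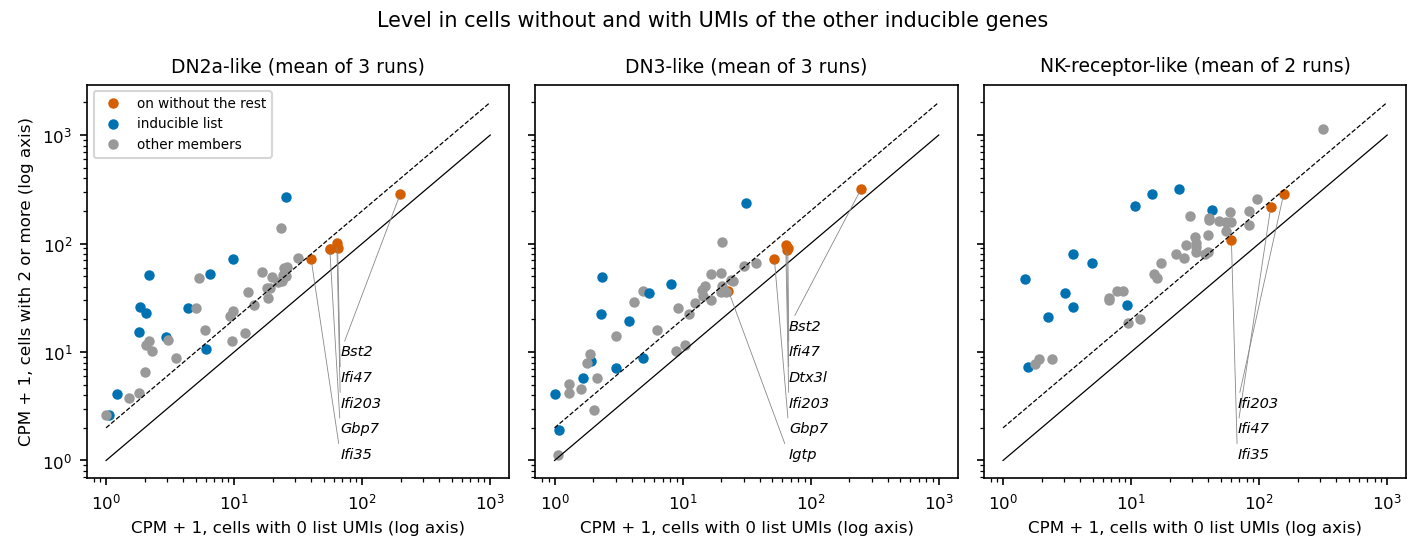
Level of each member in cells with 0 UMIs of the other inducible genes (x axis) and in cells with 2 or more (y axis), both as CPM + 1 on log axes and as the mean of the runs, in 3 gates; the solid line marks equal levels and the dashed line 2-fold. Bst2 and Ifi47 lie right of most other members and under the dashed line in DN2a-like and DN3-like cells, where genes of the list lie above it.

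Outside the DN stages the same description was met by Irf9 (46.9 CPM), Ifi209 (226 CPM) and Dtx3l in B cells and by Ifi203, Ifi35 and Ifi47 in NK-receptor-like cells. In gammadelta-like cells 0 members met it, since the ratio or the level missed the limits in some run. Bst2, for example, was at 54.99, 63.0 and 49.3 CPM in gammadelta-like cells without list UMIs, and was 2.13-, 2.79- and 1.71-fold higher in those with at least 2. Isg15, which belongs to the list, kept 18.8 to 34.0 CPM in the cells of the ETP-, DN2a-, DN2b- and DN3-like gates that had no UMI of the other list genes, and was 5.33- to 15.9-fold higher with at least 2.

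The rest of the pathway was read from a further list of ligands, receptors, kinases, factors, inhibitors and antigen presentation genes, of which 19 were tested. Ifnb1, Ifna1, Ifna2, Ifna4, Ifne, Ifnl2 and Ifnl3, ligands of the type I and III families, had 0 UMIs in every gate with at least 20 cells, and Ifnk, also of type I, had 1 UMI in each of the DN2a-like and gammadelta-like cells of run 3 and 0 in the others. Ifng, the type II ligand, was at 125 and 181 CPM in NK-receptor-like cells of runs 2 and 3 against 2.58 and 2.16 CPM in ETP-like cells (log2 fold change 6.25 ± 0.27, adjusted p = 6.86e-13). These ETP-like levels lie at the floor of 3 counts, so that the size of the change is uncertain. The type I receptor genes Ifnar1 and Ifnar2 were found in every gate, at 14.6 to 57.6 CPM and 29.1 to 103 CPM. Ifngr1, the ligand-binding chain of the interferon γ receptor, was at 110 to 830 CPM.

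The pathway genes were compared in the same fits. From ETP-like to DN2a-like cells 3 of 19 rose and 2 fell, or 26.3%, with 6.97% of all genes called (2.39% higher and 4.57% lower). Ifngr1 rose from 165 and 110 CPM to 457 and 292 CPM (log2 fold change 1.62 ± 0.31, adjusted p = 0.00154), and the inhibitor Socs1 rose by 1.33 ± 0.30 (adjusted p = 0.00684). Ifng rose by 2.05 ± 0.44 (adjusted p = 0.00462), from ETP-like levels at the floor of 3 counts. Ifnar2 (−0.71 ± 0.12, adjusted p = 0.000671) and Il10rb (−1.37 ± 0.30, adjusted p = 0.00528) fell. From DN3-like to DN4-like cells 0 rose and 2 fell, Socs3 (−2.29 ± 0.37) and B2m (−0.74 ± 0.12), with adjusted p-values of 0.00038 and 0.00043. These 2 of 19 (10.5%) were no larger a share than the 13.8% of all genes called. The other 2 steps between stages had 0 calls by edgeR, with 0 and 3 genes at an unadjusted p under 0.05.

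In gammadelta-like cells 9 of 19 pathway genes were higher and 2 lower than in DN3-like cells (57.9%), with 29.4% of all genes called (15.0% higher and 14.4% lower). Among the 9, Jak2, Nlrc5 and Ifngr1 pointed the other way in run 1, with log2 differences of −0.60, −0.04 and −0.32. Ifngr2, the second chain of the interferon γ receptor, was at 33.2, 27.1 and 39.8 CPM against 15.1, 11.5 and 9.65 CPM (log2 fold change 1.62 ± 0.17, adjusted p = 4.03e-07), and Jak1 (0.76 ± 0.15) and Irf2 (0.58 ± 0.13) were higher in every run. The immunoproteasome genes Psmb8 (−0.34 ± 0.08, adjusted p = 0.00351) and Psmb9 (−0.44 ± 0.11, adjusted p = 0.00462) were lower. In NK-receptor-like cells 13 were higher and 1 lower than in ETP-like cells (73.7%), with 39.4% of all genes called (20.2% higher and 19.2% lower). Socs1 was at 113 and 89.8 CPM against 29.3 and 23.0 CPM (2.20 ± 0.29, adjusted p = 4.66e-06), and Ifngr2 was lower, at 4.04 and 4.40 CPM against 15.5 and 18.7 CPM (−1.80 ± 0.32, adjusted p = 0.000133).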

How the data were processed

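The authors aligned the reads to mm10 and counted them with Cell Ranger, and the deposited values are UMI counts in whole numbers, not normalized (version 4.0.0 in the header of run 3; which version counted the others is not given in the sources used here). R 3.6.3 and Seurat 2.3 stand in the submitters' processing notes. Counts were summed per gate and run (at least 20 cells) and fitted together as 21 sums with edgeR 4.0.16 in R 4.3.3 (TMM, filterByExpr, quasi-likelihood F test, two-sided, Benjamini-Hochberg over 11697 genes, threshold 0.05) with run as a block. Sums of the same run deviated together (lowest correlation 0.446), since they share a library; residual degrees of freedom were 10. The p-values measure how differences between gates vary over 3 differently sorted libraries, with a spread that all gates in the fit share. Depth was 39803308, 52629426 and 78289786 UMIs in the kept cells of runs 1, 2 and 3. The test was also run on simulated counts with a single dispersion and no run effect, so that this check does not cover the shared deviations of a run. Named genes are called members whose log2 difference, with 0.5 added to each count, had 1 direction in every run, up to 10 each way, members on without the rest, and up to 5 pathway genes each way. The members and lists were chosen with earlier results of these data known, and the scoring of the gates and the limit of 10 UMIs were set after seeing the counts. No doublet caller was run; likely doublets were left out as an alternative. 1 gate of cells outside the DN stages and 1 gene of the pathway list, though part of the fit, are not reported here. DESeq2 1.42.0, other filters and left-out runs were alternatives. Poisson and Clopper-Pearson intervals (95%) cover counting error only.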

Additional observations from a re-analysis of the deposited data

Results flagged for a closer look

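Cells outside the limits on genes and mitochondrial counts took no part in the comparisons, and the members were found in them above the level that a count of 0 allows. In run 2 their summed level was 1517 CPM in 31 cells over the mitochondrial limit, beside 1255 CPM in the kept cells. In run 3 it was 866 CPM in 552 cells over 5000 genes, 1570 CPM in 762 cells over the mitochondrial limit and 1662 CPM in 199 cells under 500 genes, beside 1760 CPM in the kept cells. Of the cells over 5000 genes, 24 had at least 10 UMIs of the inducible list.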

How the results depend on the processing

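Over the alternatives, 80 of the values that answer a comparison stayed within the limits for a change and 28 moved. Without the replicate block, 0 members were called between DN2a-like and ETP-like and between DN4-like and DN3-like cells, 3 in gammadelta-like against DN3-like and 13 in NK-receptor-like against ETP-like cells, and the replicate block was kept because sums of a run share their library. DESeq2 called 11 members in the DN4 comparison. From DN2a-like to DN2b-like cells, 2 members were called with no filter on low counts, 1 with at least 50 cells per sum, 1 with likely doublets left out and 2 with cycling cells left out, the last chosen after seeing the data. From DN2b-like to DN3-like cells, 1 was called with likely doublets left out. The DN4 comparison rested on run 1 alone with at least 50 cells, with thinned gates and without likely doublets, and 22, 19 and 24 members were then lower; without cycling cells 4 were. Leaving out each run gave 0 to 3 calls for DN2a-like, 0 to 1 for DN2b-like, 4 to 16 for DN4-like, 9 to 25 for gammadelta-like and 23 to 35 for NK-receptor-like cells; the log2 fold change of Ifit3b in gammadelta-like cells turned to −3.21 without run 3 and was 3.34 without run 1. Gates on thinned cells moved the mean summed level to 1351 CPM in DN2b-like and 4452 CPM in B cells, and leaving out likely doublets moved the latter to 4926 CPM. Thinning to 2000 UMIs lowered the mean share of cells with a list UMI to 15.0, 15.3, 16.5 and 15.2% from ETP-like to DN3-like, 20.9% in gammadelta-like and 39.1% in B cells. With 40 CPM in place of 20, or 1.5-fold in place of 2-fold, 5 and 4 members were on without the rest in some DN stage, in place of 9. Of the values of single members, 396 kept their call, 71 kept their direction only and 1 reversed. Except where the construction of an alternative gives it, the cause was not tested. Depth limits the genes under 5 CPM and the smaller gates.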
